A study of Mus musculus with 8 samples.

Results

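Autophagy and lysosome genes were followed in primary mouse myofibroblastic hepatic stellate cells (pMF-HSCs) in which O-GlcNAc transferase was inhibited. The set held 44 genes chosen by name among the 40840 genes in the tables, and all 44 were among the 19963 genes that had enough counts to be tested. It covers the MiT/TFE transcription factors, the machinery that starts and extends the autophagosome, the ATG8 proteins on its membrane, cargo receptors, and the membrane proteins, hydrolases and proton pump of the lysosome. Choice by name did not use any measured value, but the list was drawn up with earlier results of these data known.

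Hepatic stellate cells store vitamin A in the healthy liver and turn into collagen-producing myofibroblasts when grown on plastic. In this study they were purified from livers of male C57BL/6J mice aged 15 to 18 weeks, by density gradient and sorting on retinol autofluorescence, and left to activate for 7 days in culture. The control group received the vehicle DMSO for 24 h (n = 4), and the OGTi group received OSMI-1, a small-molecule inhibitor of O-GlcNAc transferase, at 50 µM for 24 h (n = 4). O-GlcNAc transferase (OGT) attaches the sugar O-GlcNAc to serines and threonines of nuclear and cytoplasmic proteins. The 4 replicates of each group are labelled as biological, and control and OGTi cultures that share a replicate number were paired. All 8 cultures came from 1 strain and 1 sex, and a single dose and a single time were measured. The treatment label of control replicate 4 spells the vehicle "DSMO", and its group was taken from the title.

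Libraries held 30068876 to 37372420 counts, of which the 44 genes took 1.25% to 2.21%. The myofibroblast genes Acta2 and Col1a1 stood at 1556 to 2587 and 375.9 to 986.7 TPM in control and at 1310.1 to 2179 and 56.2 to 618.4 TPM in OGTi, while the hepatocyte gene Alb was at or below 0.17 TPM in every library (TPM is a transcript level scaled by gene length and by depth). Of 14 stellate cell and myofibroblast markers none rose and 2 fell, namely Lrat and Pdgfrb, with log2 fold changes of -1.78 and -1.68. Of the markers of other liver cells that could be tested, 0 of 11 endothelial, 1 of 5 hepatocyte and 1 of 6 cholangiocyte genes rose and 3, 0 and 1 fell. Over all genes tested, 8.13% rose and 10.2% fell. Some libraries stood apart. In control replicate 4, 366 of 10713 genes (those with a mean of at least 100 scaled counts in the other libraries of the group) were at least 4-fold below the mean of the other control libraries, and Wipi2 and Mcoln1 were among them. In OGTi replicate 1, 451 of 10559 genes were that far below the other OGTi libraries, Nbr1 among them. The other libraries had 6 to 104 such genes and no gene of the set, and OGTi replicate 4 had a count for 23746 genes against 19035 to 20293 in the other libraries.

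Macroautophagy encloses cytoplasm, damaged organelles or protein aggregates in a double membrane, the autophagosome, which fuses with the lysosome so that acid hydrolases can degrade what it carries. ATG8 proteins (the LC3 and GABARAP families) are conjugated to a lipid of that membrane and hold receptors such as p62/SQSTM1 that bring cargo to it. The MiT/TFE factors TFEB, TFE3 and MITF bind an E-box found near many lysosomal and autophagy genes and are held in the cytoplasm when mTORC1, the nutrient-sensing kinase on the lysosome surface, is active. In stellate cells autophagy is known for degrading lipid droplets during activation.

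OGTi was accompanied by higher RNA levels of many of these genes. Of the 44 genes, 17 were higher (38.6%) and 2 were lower (4.55%) in OGTi, at a Benjamini-Hochberg adjusted p of at most 0.05 in edgeR's paired quasi-likelihood test, and 25 did not pass. Over all genes tested, 18.4% passed that threshold, with 8.13% higher and 10.2% lower. The median log2 fold change (log2 FC) of the set was 0.54 against 0.01 over all genes tested, and 40 of the 44 log2 FC were above 0. Within replicates 1 to 4 the median log2 ratio of the 44 genes was 0.63, 0.26, 0.59 and 0.68, with 35, 35, 39 and 36 of them higher in the OGTi culture. In 25 genes the OGTi culture was the higher one in all 4 pairs, which was so for 19.4% of all genes. All OGTi libraries lay above all control libraries for 19 of the 44, against 11.5% of all genes, and below them for 2, against 12.0%. Summed TPM of the 44 genes went from 14361 ± 1430.7 in control to 17034 ± 974.1 in OGTi (SD, n = 4), and the groups did not overlap, with 12741 to 16119 and 16222 to 18342. Sqstm1 alone made up 1495 of the 2673 TPM of difference. With it left out, a choice made after its values were seen, the sums were 11632 to 14696 in control and 12501 to 15872 in OGTi, which overlapped while the OGTi culture was higher in all 4 pairs. These are levels in bulk RNA, in which fewer cells of a type and less RNA per cell cannot be told apart.

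**Figure D1:**
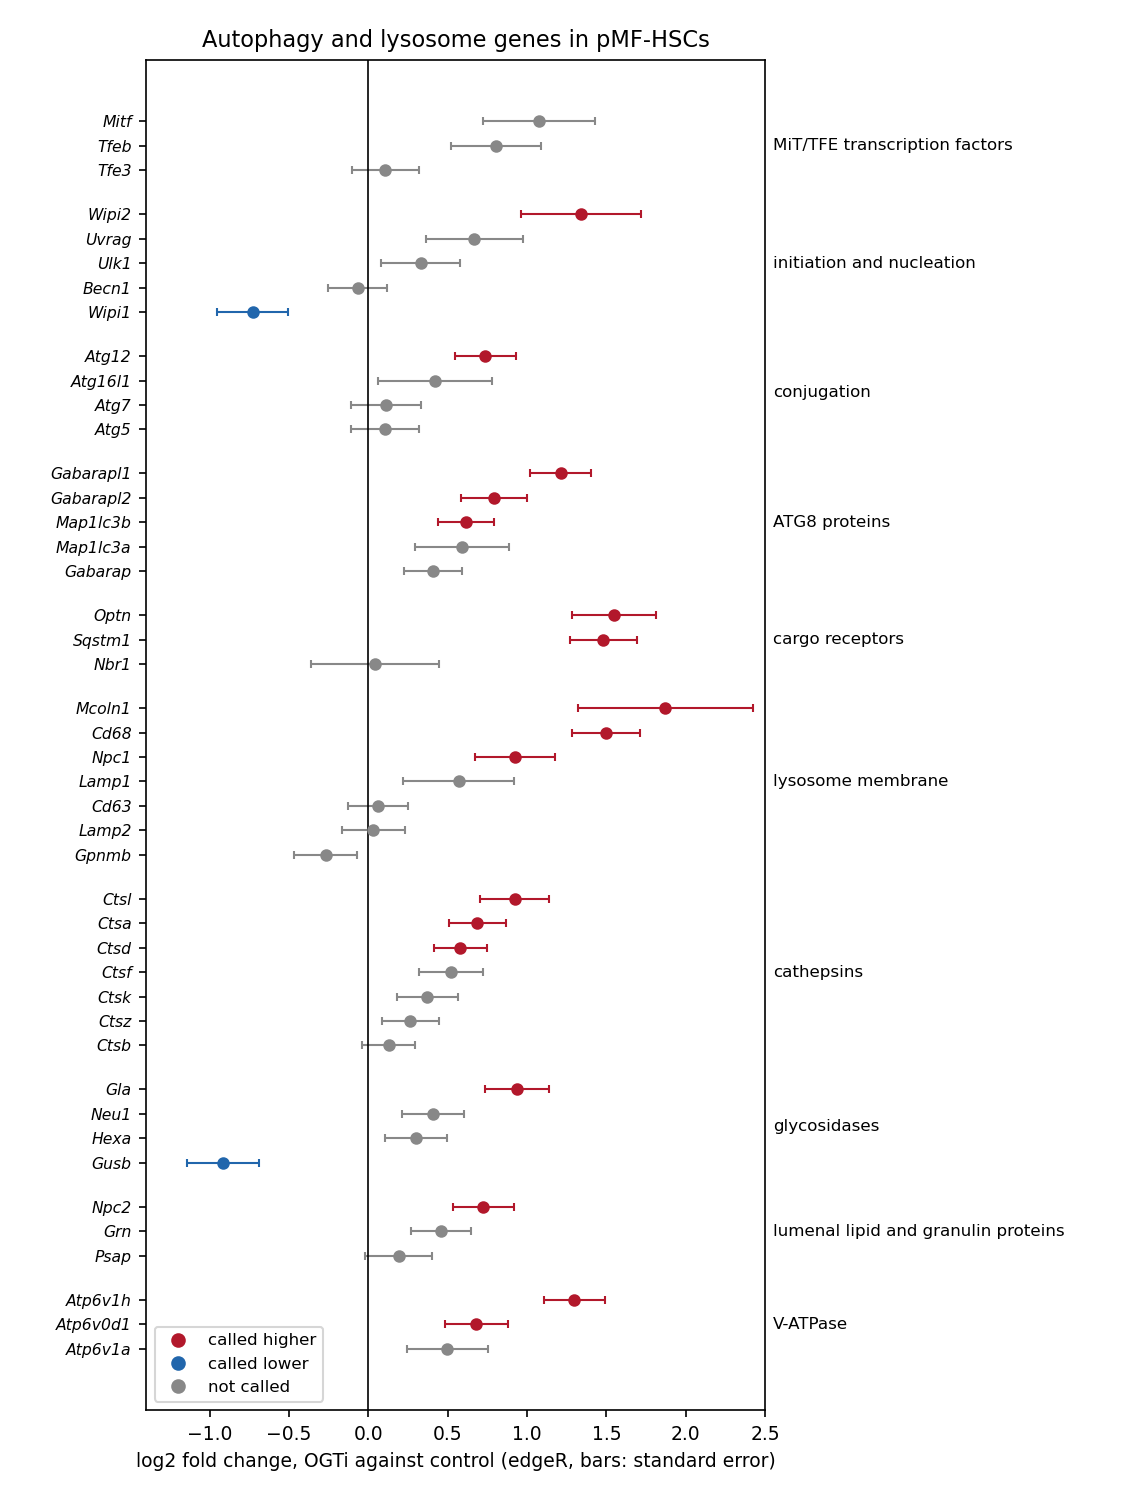
Log2 fold change of the 44 genes in OGTi against control, grouped by role on the vertical axis, with the standard error as a bar; red points were called higher, blue points lower and grey points were not called. The 17 genes called higher lie between 0.58 (Ctsd) and 1.87 (Mcoln1) and belong to every group except the transcription factors, whereas the 2 lower ones are Wipi1 and Gusb.

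The MiT/TFE factors were examined first because they bind promoters of the other groups. None of the 3 passed the threshold in edgeR. Tfeb and Mitf passed with DESeq2 (adjusted p of 0.0344 and 0.0226) and with upper-quartile scaling (0.0469 and 0.0404), and Mitf also passed with no count filter (0.0315). Of the 12 alternative analyses listed under processing, Tfeb thus passed in 2 and Mitf in 3. Tfe3 (chromosome X, 7628761 to 7641444; coordinates throughout are those of GENCODE vM39 on GRCm39) accounted for 94.5% ± 1.18 of the summed TPM of the 3 factors in control and 93.3% ± 1.54 in OGTi (SD, n = 4). Its scaled counts, that is counts brought to a common library size with TMM factors, were 2144.5, 2213, 2574 and 3384 in control replicates 1 to 4 and 1632.5, 2631, 3063 and 4212 in OGTi replicates 1 to 4. The groups overlapped, and the log2 FC was 0.11 ± 0.21 (SE, adjusted p = 0.781).

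Tfeb (chromosome 17, 48047837 to 48103348), the factor best known for driving lysosome biogenesis, was scarce, with 71.5, 101.1, 104.05 and 91.5 scaled counts in control and 120.8, 118.4, 201.9 and 221.7 in OGTi. Each OGTi library was above each control library, yet the log2 FC of 0.81 ± 0.29 (SE) had an adjusted p of 0.0788. On the TPM scale Tfeb was level, at 1.98 ± 0.387 in control and 1.97 ± 0.555 in OGTi (SD, n = 4). The transcript length that RSEM assigned to Tfeb, averaged over its isoforms by abundance, was 2449.8 to 2654 bases in control and 2863 to 3909 bases in OGTi, and only 0.676% of all genes tested shifted in length by as much. Mitf (chromosome 6, 97783950 to 97998323) was scarcer still, with 27.5, 43.97, 73.7 and 60.7 scaled counts in control and 114.7, 82.6, 98.2 and 120.6 in OGTi, without overlap, and had a log2 FC of 1.08 ± 0.35 (SE, adjusted p = 0.0595). In TPM Mitf was at 0.52 ± 0.213 in control and 0.70 ± 0.0762 in OGTi (SD, n = 4), with overlapping groups. Tested on log2(TPM + 1) with limma, its log2 FC was 0.17 with an adjusted p of 0.307. Its assigned length also differed without overlap, with 5087 to 5183 bases in control and 5439 to 6339 in OGTi. Over the 44 genes the median absolute log2 ratio of assigned length was 4.61e-04, against 0.48 and 0.22 for the group means of Tfeb and Mitf.

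The E-box that MiT/TFE factors bind was then searched in promoters, as a description of sequence only. RefSeq promoter sequences (250 bases before to 50 after the transcription start) were available for 37 of the 44 genes. The core CACGTG, which reads the same on both strands, occurred in 11 of these 37 (29.7%), against 8.09% of 27025 genes with a promoter sequence and 10.4% of the 14908 genes tested that had one. The longer palindrome TCACGTGA, which contains the core, occurred in 6 (16.2%), against 1.12% and 1.74%. It was present in 5 of the 14 genes called higher that had a promoter sequence (Ctsa, Ctsd, Mcoln1, Atp6v0d1 and Gla), in Atp6v1a as 1 of the 21 not called, and in neither gene called lower. The calls of these 5 genes held in 6, 6, 7, 5 and 11 of the 12 alternatives, respectively, and Atp6v1a was called in 1. The core was not found for Gabarapl1, Sqstm1, Optn, Cd68 or Atp6v1h, which were called in all 12. Genes without a promoter sequence could not be searched. The stretches holding TCACGTGA are shown because they are the sequence feature these 6 genes share, 5′ to 3′ on the strand of the gene, with CACGTG and TCACGTGA in capitals.
Ctsa: tgTCACGTGAtgcagatgcTCACGTGAcca
Ctsd: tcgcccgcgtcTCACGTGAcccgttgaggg
Mcoln1: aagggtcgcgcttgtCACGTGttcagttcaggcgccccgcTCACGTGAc
Atp6v0d1: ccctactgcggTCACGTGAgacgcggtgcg
Atp6v1a: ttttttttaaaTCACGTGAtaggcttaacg
Gla: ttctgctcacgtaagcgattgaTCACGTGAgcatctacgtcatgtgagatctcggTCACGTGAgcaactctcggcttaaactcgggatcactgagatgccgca

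On GRCm39 these stretches are at chr2:164675678-164675707 (Ctsa, plus strand), chr7:141941645-141941674 (Ctsd, minus), chr8:3550433-3550481 (Mcoln1, plus), chr8:106292682-106292711 (Atp6v0d1, minus), chr16:43959736-43959765 (Atp6v1a, minus) and chrX:133501902-133502004 (Gla, minus). The palindrome began 13 bases before and at base 5 after the RefSeq start in Ctsa, and 99, 46, 4 and 132 bases before it in Ctsd, Mcoln1, Atp6v0d1 and Atp6v1a. In Gla there were copies 228 and 195 bases before the start. GENCODE vM39, which lists many alternative starts, places an exon of at least 1 transcript over all 30 bases shown for Ctsa, Ctsd, Atp6v0d1 and Atp6v1a, over 30 of the 49 for Mcoln1 and over 3 of the 103 for Gla. Lamp1, chosen for mention after its promoter was read, held the core 4 times, at 61, 45, 28 and 15 bases before the start, and Lamp1 was not called. Whether any factor occupies these stretches was not measured.

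The 5 genes that start the autophagosome summed to 338 ± 63.4 TPM in control and 301 ± 47.2 in OGTi (SD, n = 4). The groups overlapped, and the sum was lower in the OGTi culture of all 4 pairs. Among these genes, Wipi2 rose and Wipi1 fell. Both encode WIPI proteins, which read the lipid PI3P on the forming membrane, and WIPI2 recruits the ATG16L1 complex there. Wipi2 (chromosome 5, 142613453 to 142656343) was at 3420.4, 8207, 4686 and 1003 scaled counts in control and at 8683.5, 8248, 11075 and 6975 in OGTi. Its log2 FC was 1.34 ± 0.38 (SE, adjusted p = 0.0333), but the groups overlapped, replicate 2 scarcely moved, and without replicate 4, whose control library was the lowest, the log2 FC was 0.88 with an adjusted p of 0.0988. Wipi1 (chromosome 11, 109464156 to 109502793) was at 1173, 1564, 1924 and 1025.1 in control and at 805.99, 995.0, 818.8 and 725.9 in OGTi. Every OGTi library was below every control library for Wipi1, with a log2 FC of -0.73 ± 0.22 (SE, adjusted p = 0.0461). Of the 12 alternatives, Wipi1 was called in 7 and Wipi2 in 6. The call of Wipi1 was lost with upper-quartile scaling (-0.60, adjusted p = 0.103) and without the replicate block. It was also lost without replicate 2, without replicate 3 (-0.56, adjusted p = 0.267) and without replicate 4. The kinase gene Ulk1, Becn1 (the Beclin 1 subunit of the PI3P-making kinase complex) and Uvrag (its partner) did not pass, with log2 FC of 0.33, -0.07 and 0.67. Without replicate 2 the log2 FC of Uvrag was 1.03 with an adjusted p of 0.0491, the 1 alternative of 12 in which it passed.

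Of the conjugation genes, whose products attach ATG8 proteins to lipid, Atg12 rose and the others did not pass. Atg12, a ubiquitin-like protein joined to ATG5, was at 4750.4, 4363, 4843 and 4787 scaled counts in control and at 7303, 6295, 9749 and 8295.5 in OGTi. The groups were apart, with a log2 FC of 0.74 ± 0.19 (SE, adjusted p = 0.0232). Atg5, Atg7 and Atg16l1, which act with it, had log2 FC of 0.11, 0.11 and 0.42 and adjusted p from 0.471 to 0.789.

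All 5 ATG8 genes had a log2 FC above 0, and 3 passed. Gabarapl1 (chromosome 6, 129509725 to 129520544) was at 8449.7, 7748, 8471 and 10111 scaled counts in control and at 19385, 13990, 25073 and 23819 in OGTi, so that the lowest OGTi library exceeded the highest control. Its log2 FC was 1.21 ± 0.19 (SE, adjusted p = 0.00247), a 2.32-fold change, and it remained called in all 12 alternative analyses. Gabarapl2 (chromosome 8, 112667322 to 112682011) was at 5670.5, 5787, 4445 and 4985 in control and at 12405, 6958, 7912 and 9489 in OGTi. The groups were apart there too, with a log2 FC of 0.79 ± 0.21 (SE, adjusted p = 0.025). Map1lc3b (chromosome 8, 122317100 to 122325499), which encodes the LC3B protein commonly used as an autophagosome marker, was at 26415, 28605, 22289 and 16728 in control and at 46811, 37676, 37698 and 23208 in OGTi. It was higher in every pair although the groups overlapped, with a log2 FC of 0.61 ± 0.18 (SE, adjusted p = 0.0363). Gabarap and Map1lc3a had log2 FC of 0.41 and 0.59 and did not pass, and in both OGTi replicate 1 was the highest library.

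On the length-scaled TPM, which allows genes to be compared, the ATG8 family summed to 2020.5 ± 243.2 in control and 2570.2 ± 142.0 in OGTi (SD, n = 4), and the lowest OGTi library (2391) exceeded the highest control (2322). The make-up of the family shifted at the same time. Gabarap, the most abundant member, made up 35.1% ± 1.15 of the family TPM in control and 29.1% ± 1.57 in OGTi, and every OGTi library was lower. Gabarapl1 made up 13.9% ± 3.39 and 20.3% ± 5.61, higher in all 4 pairs but with groups that overlapped.

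**Figure D2:**
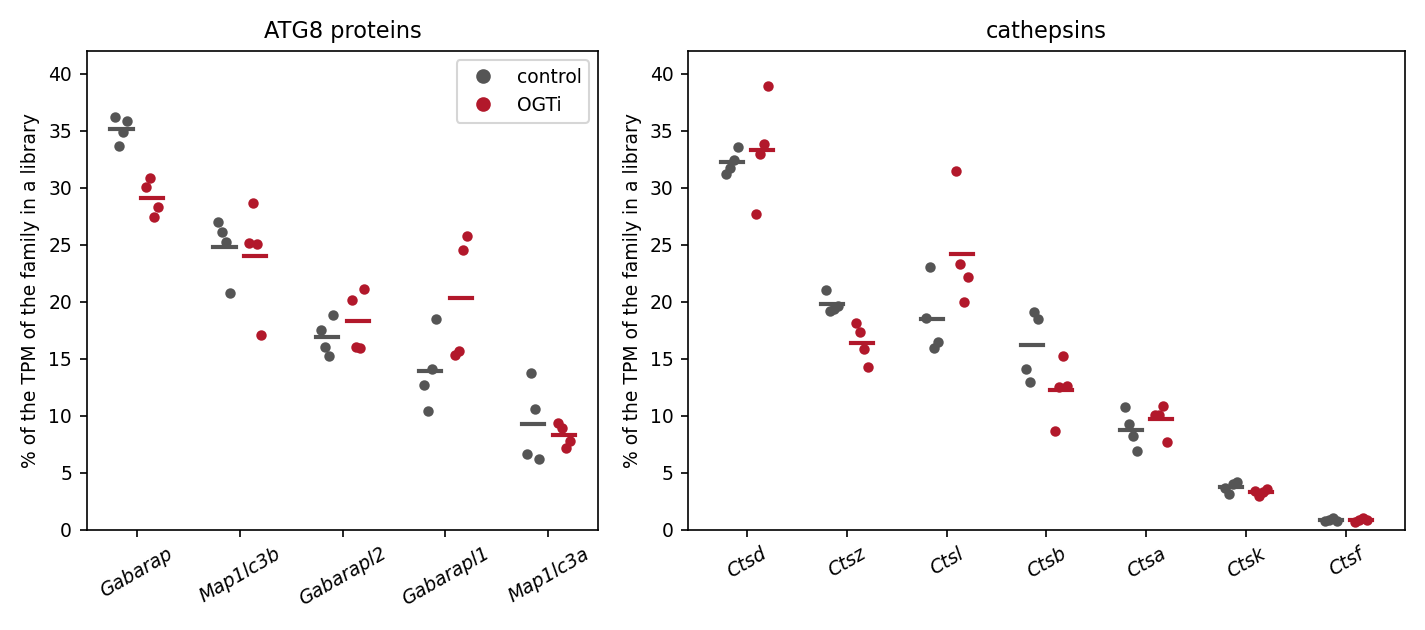
Share of the summed TPM of a family taken by each of its genes, in percent, for the ATG8 proteins and the cathepsins; each point is a library (grey control, red OGTi, n = 4 each) and the bar is the group mean. Gabarap in the first panel (33.6% to 36.2% in control, 27.4% to 30.8% in OGTi) and Ctsz in the second (19.1% to 21.0% and 14.2% to 18.1%) are the genes whose groups do not overlap.

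The cargo receptors held the most abundant of the rising genes. Sqstm1 (chromosome 11, 50089572 to 50107684) encodes p62, which binds ubiquitylated proteins and KEAP1 and is itself degraded by autophagy. It was at 49405, 65275, 45689 and 50054 scaled counts in control and at 119820, 121620, 149340 and 205740 in OGTi, with a wide gap between groups. The log2 FC was 1.48 ± 0.21 (SE, adjusted p = 0.00155), a 2.79-fold change. With 1160 ± 178 TPM in control and 2655 ± 791 in OGTi (SD, n = 4), it had the second highest mean level of the 44 genes.

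Optn (chromosome 2, 5022703 to 5068945), encoding optineurin, a receptor in the removal of damaged mitochondria and bacteria, was at 1439, 1402, 1643 and 681.2 scaled counts in control and at 3194, 3127, 4444 and 3774 in OGTi. No OGTi library came near the controls, and the log2 FC was 1.55 ± 0.26 (SE, adjusted p = 0.00349), or 1.26 with an adjusted p of 0.0137 without replicate 4, whose control library was the lowest. Nbr1, a receptor that works with p62, did not pass, with 4029, 4021.5, 4622 and 5789.5 in control and 1081.5, 5412, 7670.3 and 9286 in OGTi. OGTi was higher in pairs 2 to 4 and lower in pair 1, where the OGTi library was the one that stood apart. The log2 FC of Nbr1 was 0.04 ± 0.40 (SE, adjusted p = 0.959) with all pairs, and 0.62 with an adjusted p of 0.0416 without replicate 1. That was the 1 alternative of 12 in which Nbr1 passed. The 3 receptors summed to 1237 ± 174.5 TPM in control and 2769 ± 828 in OGTi (SD, n = 4), of which Sqstm1 made up 93.7% and 95.9%.

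**Figure D3:**
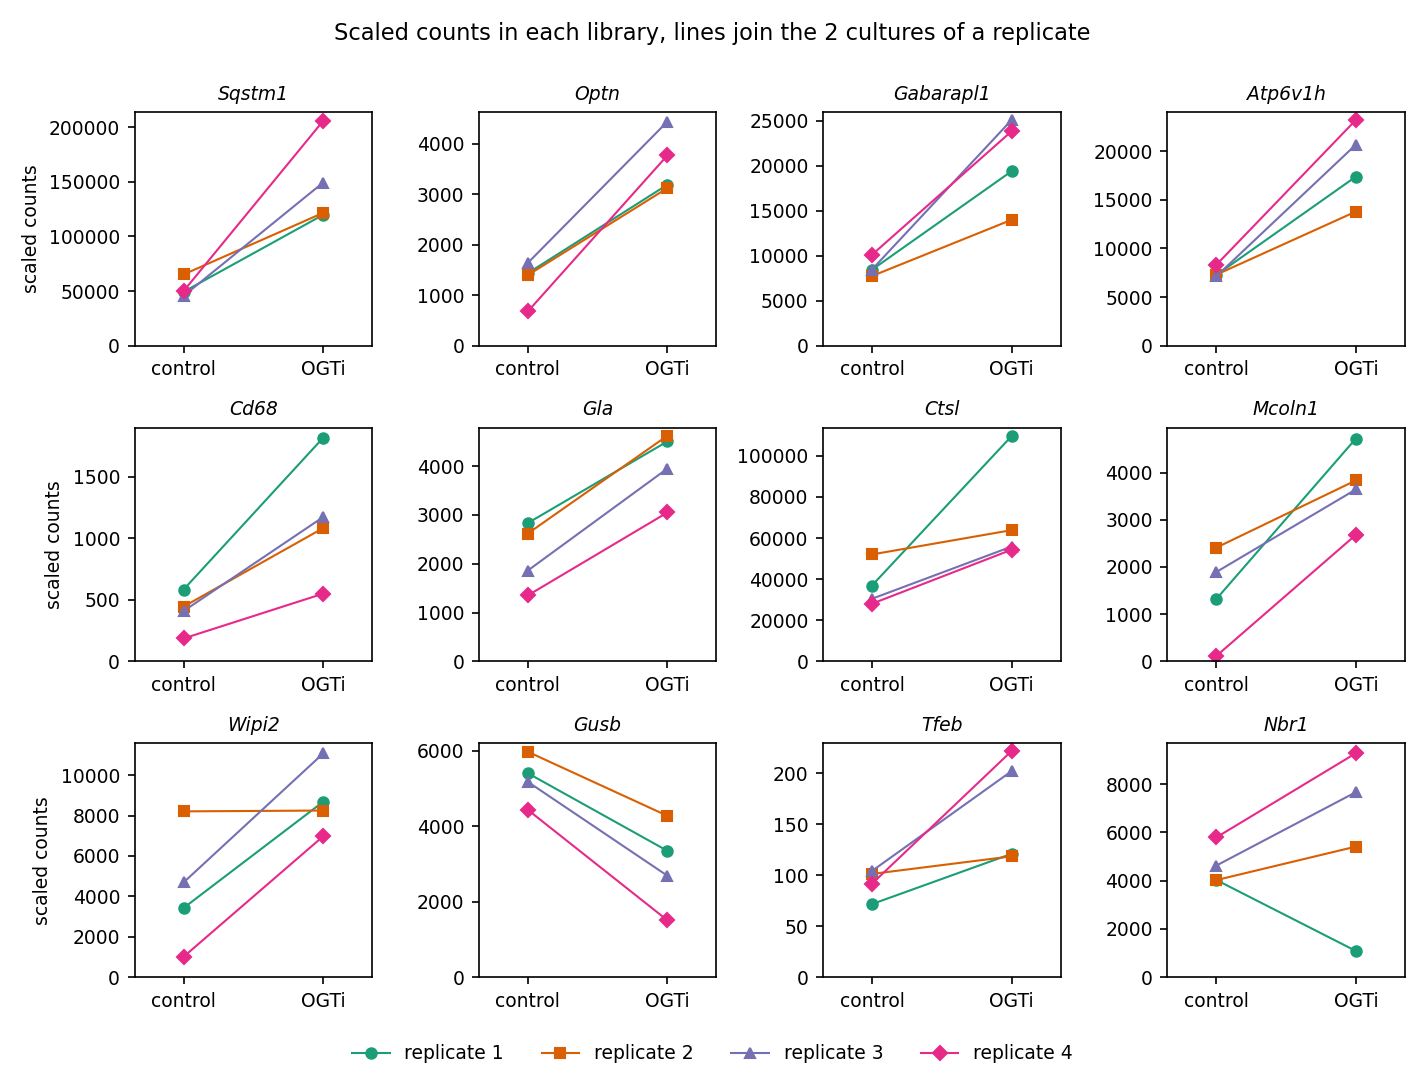
Scaled counts (vertical axes, starting at 0) of 12 of the 44 genes in the control and OGTi culture of each replicate, with a line joining the pair. Sqstm1, Optn, Gabarapl1 and Atp6v1h rise in every pair with a gap between groups, Mcoln1 and Wipi2 have 1 control library (replicate 4) far below the rest at 113.7 and 1003, and Nbr1 has an OGTi library (replicate 1) at 1081.5.

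Genes of the lysosome membrane split into 3 that rose and 4 that did not pass. Mcoln1 (chromosome 8, 3550452 to 3565253) encodes TRPML1, the channel that lets calcium out of the lysosome. It was at 1319, 2409, 1892 and 113.7 scaled counts in control and at 4718, 3833, 3641.5 and 2681 in OGTi, with no overlap. The log2 FC of 1.87 ± 0.55 (SE, adjusted p = 0.0398) was the largest of the set and leaned on control replicate 4, since without that replicate it was 1.16 with an adjusted p of 0.0356. Without replicate 1 Mcoln1 did not pass, with a log2 FC of 1.88 and an adjusted p of 0.125.

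Cd68 (chromosome 11, 69555037 to 69557067), a LAMP-family glycoprotein abundant in macrophages, was at 584.3, 445.85, 409.8 and 186.9 scaled counts in control and at 1819, 1084, 1174 and 551.4 in OGTi. It was higher in every pair while the groups overlapped slightly, with a log2 FC of 1.50 ± 0.21 (SE, adjusted p = 0.00154). Since Cd68, Gpnmb and the cathepsins are also macrophage genes, 16 macrophage markers were read beside them. Of the 15 tested none rose and Cd14 fell, and their median log2 FC was -0.41. Over all genes tested, 8.13% rose and 10.2% fell, and counts on so short a list cannot be told from these shares. They summed to 30.7 to 207.2 TPM in control libraries and 25.2 to 216.1 in OGTi libraries, mainly through Lyz2. The leukocyte marker Ptprc was at most 0.11 TPM, the Kupffer cell marker Clec4f at most 0.27 and Adgre1 at most 0.96 in any library. Other macrophage markers were expressed. Lyz2 was at 13.67 to 137.68 TPM in control and 18.59 to 167.54 in OGTi. Cd14 was at 9.12 to 17.44 and 4.41 to 7.41, and Csf1r at 3.58 to 6.66 and 2.22 to 5.39.

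Npc1, the membrane protein that moves cholesterol out of the lysosome, was at 1204, 1089, 1081 and 765.96 scaled counts in control and at 1492, 2066, 1922 and 2386 in OGTi. The groups did not overlap, and the log2 FC was 0.92 ± 0.25 (SE, adjusted p = 0.0292). Its luminal partner Npc2 (chromosome 12, 84801334 to 84820617) was at 11186, 13413, 11266 and 8831 in control and at 24510, 17759, 18548 and 13766 in OGTi, again without overlap and with a log2 FC of 0.72 ± 0.19 (SE, adjusted p = 0.0264). Both genes of this cholesterol export pair were thus called higher, a call kept in 6 of the 12 alternatives for Npc1 and 7 for Npc2. Both calls were lost with library totals alone, in both limma fits on TPM, without replicate 3 and without replicate 4.

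The most abundant gene of the set, the tetraspanin Cd63 (chromosome 10, 128731528 to 128748709), was at 55076, 48382, 42690 and 43582 scaled counts in control and at 76969, 52404, 43309 and 33486 in OGTi. The OGTi libraries spread to both sides of the controls, with a log2 FC of 0.06 ± 0.19 (SE, adjusted p = 0.871). Lamp1 and Lamp2, the main glycoproteins of the lysosome coat, had log2 FC of 0.57 and 0.03, and Gpnmb, a transmembrane glycoprotein, had one of -0.27. Lamp1 varied widely in control, with 4333, 14999, 6373 and 2217 scaled counts, and without replicate 2 its log2 FC was 1.04 with an adjusted p of 0.0442. That was the 1 alternative of 12 in which Lamp1 passed. Without replicate 1, 3 or 4 its log2 FC was 0.33, 0.66 and 0.27, with adjusted p of 0.624, 0.354 and 0.690. Together the 7 membrane genes gave 3784 ± 386 TPM in control and 3331 ± 780 in OGTi (SD, n = 4), and this sum was lower in the OGTi culture of all 4 pairs. Cd63 alone made up 3096.5 and 2652 TPM of it.

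All 7 cathepsin genes had a log2 FC above 0, and 3 passed. Ctsl (chromosome 13, 64507151 to 64518704), a cysteine protease, was at 36940, 52042, 30490 and 28077 scaled counts in control and at 109600, 63863, 55875 and 54352 in OGTi. The groups were apart, with OGTi replicate 1 far above the rest, and the log2 FC was 0.92 ± 0.22 (SE, adjusted p = 0.0158). Ctsd (chromosome 7, 141929646 to 141941775), the main aspartic protease of the lysosome, was at 52183, 60456, 52224 and 48244 in control and at 81271, 75774, 80050 and 80391 in OGTi. These OGTi values lay close together, and the log2 FC was 0.58 ± 0.17 (SE, adjusted p = 0.0365). Ctsa (chromosome 2, 164674778 to 164682961), the carboxypeptidase that also protects neuraminidase 1, was at 28254, 27551, 20688 and 15532 in control and at 46331, 36135, 40168 and 25007 in OGTi. It was higher in each pair with overlapping groups, and the log2 FC was 0.69 ± 0.18 (SE, adjusted p = 0.024).

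Ctsf, Ctsk, Ctsz and Ctsb had log2 FC of 0.52, 0.37, 0.26 and 0.13 and did not pass. In TPM the 7 cathepsins summed to 4790 ± 512.5 in control and 5550.0 ± 523 in OGTi (SD, n = 4), higher in every pair with groups that overlapped. Within that sum Ctsz went from 19.8% ± 0.836 to 16.4% ± 1.73 with no overlap (a share, not tested), Ctsb and Ctsk were lower in every pair (16.2% to 12.3% and 3.74% to 3.31%) and Ctsl was higher in every pair (18.5% to 24.2%).

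Of the 4 glycosidases, which remove sugars from glycoproteins and glycolipids, Gla rose and Gusb fell. Gla (chromosome X, 133488891 to 133501904), the α-galactosidase missing in Fabry disease, was at 2833, 2620 and 1861 scaled counts in control replicates 1 to 3 and 1352 in replicate 4, and at 4506, 4623, 3950.5 and 3051 in OGTi. Every OGTi library exceeded every control library. The log2 FC was 0.94 ± 0.20 (SE, adjusted p = 0.00998), and the call was lost in 1 of the 12 alternatives, without replicate 3 (0.89, adjusted p = 0.069). Gusb (chromosome 5, 130017852 to 130031903), encoding β-glucuronidase, was at 5405, 5974, 5177 and 4434 in control and at 3346, 4274, 2686 and 1505 in OGTi. The OGTi libraries were all below the controls, with a log2 FC of -0.92 ± 0.23 (SE, adjusted p = 0.0195). The direction of Gusb was thus opposite to that of Gla, although both products work in the same compartment. Neu1 and Hexa had log2 FC of 0.41 and 0.30 and did not pass, nor did Grn and Psap, which encode precursors of small lysosomal proteins, with 0.46 and 0.19.

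The V-ATPase pumps protons into the lysosome and holds it acidic, with a V1 part that splits ATP and a V0 part in the membrane. Atp6v1h (chromosome 1, 5089010 to 5234940), a regulatory subunit of V1, was at 7264, 7301, 7132 and 8308 scaled counts in control and at 17374, 13788, 20656 and 23194 in OGTi. The control values were tightly grouped and far below, with a log2 FC of 1.3 ± 0.19 (SE, adjusted p = 0.0018). Atp6v0d1 (chromosome 8, 106251086 to 106292747), a V0 subunit, was at 5440.2, 5207, 5425 and 4417 in control and at 6499, 8833, 9769 and 7980 in OGTi, with no overlap and a log2 FC of 0.68 ± 0.20 (SE, adjusted p = 0.037). Atp6v1a, the catalytic subunit, had a log2 FC of 0.50 and did not pass, since OGTi replicate 1 (6181) was below its control (8474) while the other OGTi libraries (13531 to 16986) were above all controls. Without replicate 1 its log2 FC was 0.81 with an adjusted p of 0.0202, the 1 alternative of 12 in which it passed.

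Genes of the same pathways outside the set were read from 6 wider lists written from general knowledge, and their counts stand beside 8.13% of all genes called higher and 10.2% called lower. Among 18 other V-ATPase subunits tested, 5 rose and none fell, with a median log2 FC of 0.50. Atp6v1b2 (1.10), Atp6v0b (0.90) and Atp6v1d (0.77) led, all with OGTi above control in every library. The number that rose was 1 without replicate 3, 2 without replicate 4 and 9 with DESeq2, and Atp6v1b2 lost its call without replicate 4 (1.03, adjusted p = 0.0511). Among 36 other genes of the autophagy machinery, 5 rose and none fell, with a median of 0.14. These included Atg2a (1.55), a lipid transfer protein that feeds the growing membrane, Tmem41b (0.94), an ER lipid scramblase, and Rb1cc1 (0.93), the FIP200 subunit of the ULK1 complex. Only 1 rose without replicate 3 or without replicate 4, against 8 with DESeq2, and without replicate 4 Tmem41b (0.92, adjusted p = 0.0536) and Rb1cc1 (0.78, adjusted p = 0.0982) lost their calls. The median over 18 other cargo receptors and their regulators was 0.11. Among them Wdfy3, a scaffold for aggregate removal, fell, with a log2 FC of -1.21, a call that was lost without replicate 1 (-0.95, adjusted p = 0.071), without replicate 3 and without replicate 4 (-1.15, adjusted p = 0.0927).

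Of 46 other lysosomal enzymes 4 rose and 3 fell, with a median log2 FC of 0.14. Hgsnat (2.13), Scpep1 (1.14) and Naaa (0.74) led the rise, and Acp2 (-1.11), Siae (-1.07) and Hyal2 (-0.78) fell. Of 45 other membrane and sorting genes 4 rose and 3 fell, with a median of 0.09. The largest rises were those of Tmem192 (2.00), Pip4p1 (1.56) and the cystine exporter Ctns (1.42), and the genes that fell were Clcn6 (-1.59), Gnptab (-1.11) and Cln3 (-0.98). Of 37 genes of mTORC1 and lysosomal nutrient sensing 2 rose, namely the GTPase gene Rragc (1.29) and Flcn (0.85), which encodes its regulator folliculin, and 3 fell, namely Mlst8 (-1.16), Depdc5 (-1.14) and Tbc1d7 (-0.88), with a median of 0.10. The 4 of 46, 4 of 45 and 2 of 37 genes called higher in these 3 lists are shares near the 8.13% of all genes, and the 3 called lower in each are no larger a share than the 10.2% of all genes. Without replicate 4 the numbers that rose in them were 1, 3 and 1 and those that fell 1, 0 and 2, and without replicate 3 they were 2, 3 and 1 and 1, 1 and 1. The balance also moved with the method. With DESeq2, 5, 7 and 6 rose and 3, 3 and 4 fell. With library totals alone, 2, 3 and 1 rose and 5, 4 and 5 fell. On log2(TPM + 1) with limma, 2, 3 and 1 rose and 7, 5 and 6 fell. Of the genes named from the 6 lists, Atg2a, Scpep1, Acp2, Tmem192, Pip4p1, Ctns, Atp6v0b, Rragc and Depdc5 were called in all 12 alternatives. Naaa was called in 4 of the 12, with overlapping groups and adjusted p of 0.0861 without replicate 1 and 0.107 without replicate 4. Hgsnat, with 533.8 scaled counts in control replicate 4 against 1348 to 5450 in the other controls, was called in 9 of the 12 and lost its call without that replicate (1.83, adjusted p = 0.0541) and without replicate 1 (1.90, adjusted p = 0.0528).

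The number of genes that passed depended on the scaling. The median log2 FC of all genes moved from 0.01 under TMM to 0.13 under upper-quartile scaling and to -0.19 with library totals alone, and relative to that median the set stood 0.54, 0.54 and 0.53 higher. The number of the 44 genes called higher was 17, 19 and 9, respectively, while the share of higher genes among all calls was 44.3%, 54.2% and 30.1%. Tested on log2(TPM + 1) with limma, 7 were higher and 2 lower, and the set's median was 0.17 against -0.10 for all genes. Gabarapl1, Sqstm1, Optn, Cd68 and Atp6v1h were called in all 12 alternatives, and none of the 19 called genes changed sign in any of them. Gla was called in 11 of the 12, Ctsl in 10, Gusb in 9, and Wipi1, Atg12, Mcoln1 and Npc2 in 7. Wipi2, Gabarapl2, Npc1, Ctsa and Ctsd were called in 6, and Map1lc3b and Atp6v0d1 in 5. With only 3 pairs many calls were lost. Without replicate 1 these were Wipi2 and Mcoln1 (adjusted p of 0.099 and 0.125), and without replicate 2 Wipi1, Map1lc3b, Npc1 and Atp6v0d1 (0.0554 to 0.109). Without replicate 3, 13 of the 19 calls were lost, with adjusted p from 0.0501 to 0.267, and without replicate 4, 12 were lost, with adjusted p from 0.0608 to 0.121. Mcoln1 and the 5 genes called in all 12 alternatives were among those kept without replicate 3 and without replicate 4.

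**Figure D4:**
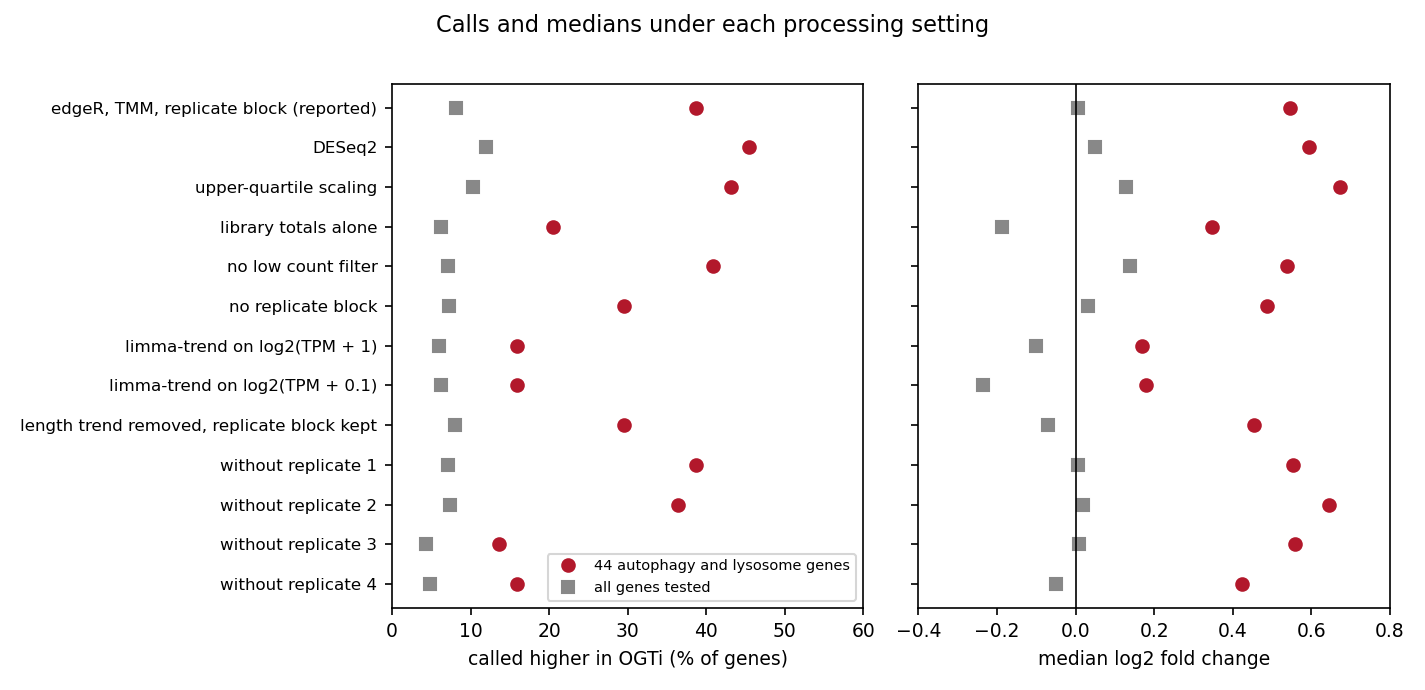
Percentage of genes called higher in OGTi (first panel) and median log2 fold change (second panel) for the 44 genes (red circles) and for all genes tested (grey squares), under the reported analysis and 12 alternatives on the vertical axis. The red circles lie to the right of the grey squares in every line, from 45.5% against 11.9% with DESeq2 down to 13.6% against 4.38% without replicate 3.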

How the data were processed

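RNA was sequenced in 4 control and 4 OGTi cultures. The authors made stranded libraries from polyadenylated RNA and, per the labels, used Bowtie2 2.3.5.1 and RSEM 1.3.1 on mm39/GRCm39. The methods name GENCODE, whereas transcript identifiers in the files are RefSeq ones. The deposited tables hold expected counts, estimated by RSEM and therefore not always whole numbers, and TPM computed by the authors. RSEM may split reads between similar genes, and of the 44 genes only Tfeb, Mitf and Gabarapl2 had a fractional count. A deposited table of the authors' DESeq2 (1.36.0) fold changes and p-values was not used. Columns of other samples numbered 0.

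Expected counts were rounded and tested in edgeR 4.0.16 (R 4.3.3) with TMM scaling, genes with a total of at least 10 counts, the replicate number as a block, and Benjamini-Hochberg adjustment over all genes. An adjusted p up to 0.05 was the threshold for a call, and the SE is the log2 FC divided by the root of F. The code was tested on simulated data. The study's methods pair the cultures of a replicate, and deviations from the group means correlated across genes by 0.16, 0.224, 0.105 and 0.318 in pairs 1 to 4. Genes with few counts, such as Tfeb and Mitf, also carry counting error.

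Library values are given for each called gene of the set, the 3 MiT/TFE factors and the 3 genes of highest TPM, and for Nbr1, Lamp1, Atp6v1a and Hgsnat after their values were seen. Genes with an adjusted p above 0.05 and up to 0.10 are named with SE and p. In each wider list at most 3 called genes per direction are named, and 1 result of the cargo receptor list is not reported here. Members, lists and tests were chosen with earlier results of these data known. Alternatives were DESeq2 1.42.0, 2 other scalings, no count filter, no replicate block, limma 3.58.1 on log2(TPM + 1) and log2(TPM + 0.1), removal of the length trend, and leaving out each replicate. Promoters come from a RefSeq table, and those printed were matched exactly to GRCm39.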

Additional observations from a re-analysis of the deposited data

Results flagged for a closer look

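In each group of 4 libraries the highest or lowest scaled count of each of the 44 genes was compared with the others by the ratio of Dixon's test. It exceeded the 95% critical value in 5 of 88 groups, against 4.4 expected by chance at that threshold. Atg7 was low in control replicate 3, at 1849.9 against 2271.5 to 2351 in the other controls. Map1lc3a was high in OGTi replicate 1, at 6096.6 against 3678 to 4078. Gabarap was high in the same library, at 21982 against 15100.0 to 16186. Gpnmb was high in control replicate 1, at 5186.1 against 2175.5 to 2424. Atp6v1h was high in control replicate 4, at 8308 against 7132 to 7301, and its OGTi libraries all remained above that value.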

How the results depend on the processing

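The direction of all 19 called genes held under the 12 alternatives, and the number called did not. The numbers called higher and lower were 9 and 2 with library totals alone (median log2 FC 0.35), 20 and 2 with DESeq2, 19 and 1 with upper-quartile scaling, 18 and 2 with no count filter, 7 and 2 with limma on log2(TPM + 1) (median 0.17) or log2(TPM + 0.1) (median 0.18), and 13 and 2 with the length trend removed. Without the replicate block 13 were higher and 0 lower, where Wipi1 (adjusted p = 0.0563) and Gusb (0.0744) narrowly missed. The 2 TPM analyses put the share of higher genes among all calls at 25.7% and 26.2%. Leaving out a replicate gave 6 to 17 higher, 0 to 2 lower and 1905 to 3124 calls over all genes. The lowest counts were without replicate 3 (6 higher, 1905 in all) and without replicate 4 (7 higher, 1956 in all), with 3 pairs in each fit. The causes were not tested.

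Of the 25 genes that were not called, 7 passed in at least 1 alternative (Tfeb, Mitf, Uvrag, Nbr1, Lamp1, Ctsf and Atp6v1a). Among these 25 genes, 13 changed sign in at least 1 alternative. With library totals alone the log2 FC was -0.088 for Atg5, -0.085 for Atg7, -0.135 for Cd63, -0.066 for Ctsb, -0.16 for Lamp2, -0.15 for Nbr1, -0.0030 for Psap and -0.088 for Tfe3. On log2(TPM + 1) and log2(TPM + 0.1) it was -0.21 and -0.21 for Atg5, -0.21 and -0.22 for Atg7, -0.27 and -0.27 for Cd63, -0.19 and -0.19 for Ctsb, -0.062 and -0.062 for Ctsz, -0.025 and -0.026 for Hexa, -0.22 and -0.22 for Lamp2, -0.31 and -0.34 for Nbr1, -0.14 and -0.14 for Psap, -0.21 and -0.22 for Tfe3, and -0.016 and -0.033 for Tfeb. With the length trend removed and the replicate block kept it was -0.050 for Atg5, -0.27 for Cd63 and -0.023 for Lamp2, and with upper-quartile scaling it was 0.059 for Becn1. Leaving out each replicate in turn gave log2 FC from -0.032 to 0.765 for Atg16l1, -0.064 to 0.212 for Atg5, -0.058 to 0.248 for Atg7, -0.133 to 0.023 for Becn1, -0.079 to 0.218 for Cd63, -0.069 to 0.21 for Lamp2 and -0.22 to 0.615 for Nbr1.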
